A study of Mus musculus with 12 samples.

Results

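The potassium channel genes of the mouse heart were taken as every gene whose symbol starts with Kcn, together with Abcc8 and Abcc9, the sulfonylurea receptors that complete the ATP-sensitive channel. Of 18193 genes with a probe set of their own on the arrays, 86 met this rule, and they were read by 172 probe sets. For a gene with several probe sets, the one of highest mean log2 value was read. By class there were 31 pore subunits of voltage-gated channels, 12 auxiliary subunits of those channels, 15 inward rectifiers, 2 sulfonylurea receptors, 12 tandem-pore-domain subunits, 11 subunits of calcium- or sodium-activated channels and 3 non-coding RNAs of these loci.

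Potassium channels let potassium leave the cell and so end the cardiac action potential and hold the resting membrane negative. In mouse ventricle the transient outward current, carried by Kcnd2 and Kcnd3 with the auxiliary subunit Kcnip2, and the delayed rectifiers do most of the repolarizing. Kcnh2 and Kcnq1 carry the rapid and slow delayed rectifier currents that dominate in larger mammals, including humans. Inward rectifiers set the resting potential (Kcnj2, Kcnj12), answer acetylcholine in atrial and nodal cells (Kcnj3, Kcnj5) or open when ATP falls (Kcnj11, Kcnj8), and loss of potassium currents is a known feature of hypertrophied and failing hearts.

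The study compared hearts of mice lacking apelin, a peptide hormone with a G protein-coupled receptor on heart and vessel cells, with hearts of wild-type mice, each after aortic banding or sham surgery. Banding narrows the aorta and loads the left ventricle with pressure. Total RNA of each heart was read on 1 Affymetrix array, giving 4 groups of 3 biological replicates: apelin-knockout banded, apelin-knockout sham, wild-type banded and wild-type sham. Strain, age, sex, the knockout allele, the time after surgery and the chambers taken are not stated in the labels.

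Array medians lay between 40.3 and 50.4 intensity units. Apln, the targeted gene, lay between 63.7 and 271 in the 6 arrays labelled knockout and between 205 and 333 in the 6 labelled wild type, a log2 difference of -0.96 (exact two-sided permutation test, p = 0.0130). The array labelled knockout banded 1 had the 271 and overlapped the wild-type arrays, so results are given with it and, where it matters, without it. That array also stood apart in some markers of other tissue. Its 5 lung and airway markers summed to 1637, against 142 to 215 in the other arrays. Of these, Scgb1a1, a secretory protein of airway cells, was 1094 against 1.93 to 49.8, and Scgb3a2 was 410 against 14.9 to 51.8. The other markers of that list, Sftpc, Sftpa1 and Sftpb, at 49.2, 30.4 and 54.3, lay inside the range of the other arrays. Adipoq, the fat hormone adiponectin, was 392 in it and 327 in wild-type banded 1, against 3.63 to 103 in the other 10 arrays. The other adipocyte markers in the table, Fabp4 at 6756 and Retn at 59.9, lay inside the range of the other arrays. The part of this tissue content in the results was not tested. Cardiomyocyte markers were high in every array, with Myh6 between 9688 and 19471. Atrial markers differed between arrays: Sln, an atrial regulator of the calcium pump, was 3.19 in knockout sham 1 and 1.42 in wild-type banded 3, against 7649 in wild-type banded 1.

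Of the 86 genes, 33 passed the filter on low values, which keeps the upper 60% of all genes by mean, and were tested. The other 53 had means between 1.11 and 46.6, with no single array above 75.6, and are given as values only. Among the 33, the mean ran from 48.7 to 2666, and the plot of all tested members by array shows their spread. Abcc9, at 2030 to 3235 by group mean, and Kcnip2, at 1324 to 1861, gave the brightest readings. Values of different genes come from different probes and cannot be ranked as amounts of RNA.

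**Figure D1:**
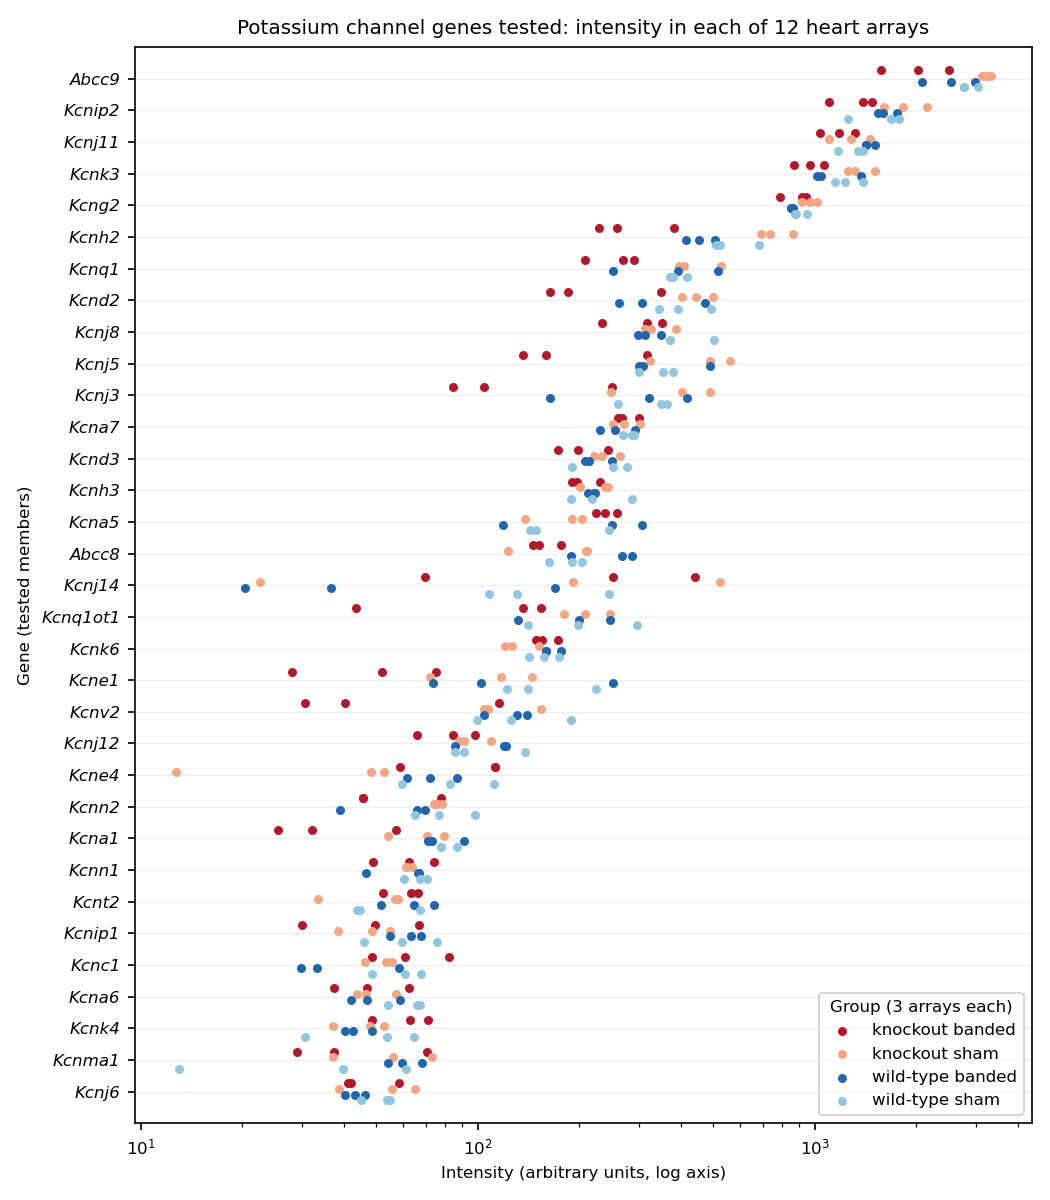
Intensity (arbitrary units, log axis) of each of the 33 tested potassium channel genes, 1 point per array, with the 3 arrays of each of the 4 groups in 1 colour. For Kcnh2 the 3 knockout banded arrays lie left of all other arrays, at 229 to 383, while Kcnj14 scatters from 20.4 to 523 over the 12 arrays.

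Banding in knockout hearts gave the only calls in a single genotype. Kcnh2, Kcnj5 and Abcc9 fell, 0 genes rose and 30 did not pass the test (limma, adjusted p under 0.05 over 10916 genes). Over all tested genes 3.81% passed in this contrast, 1.76% lower and 2.05% higher. At an unadjusted p under 0.05 there were 13 of the 33, against 21.1% of all genes. The median log2 difference of the 33 was -0.19, with 24 below 0, against a median of -0.02 with 53.1% below 0 over all genes. The banded arrays lay wholly below the sham arrays for 8 of the 33 and wholly above for 2, against 14.4% and 12.2% of all genes. In RNA of heart tissue, fewer cells of a type and less RNA per cell cannot be told apart.

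The count depended on single arrays. It was 1, Kcnh2, without any 1 of knockout banded 2 and 3 or knockout sham 1, 2 and 3, where 0.0824% to 0.806% of all genes passed. Without wild-type banded 3 it was 5, all lower, with Abcc9, Kcnd2, Kcnh2, Kcnj3 and Kcnk3, where 2.99% of all genes passed. Without the array labelled knockout banded 1 it was 10, with 9 lower and Kcne4 higher, where 6.95% of all genes fell and 6.25% rose. For 19 of the 33 genes that array lay nearest of the 3 knockout banded arrays to the knockout sham mean. The share over all tested genes was not taken, so this count does not set the channel genes apart.

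The proximal promoters of the 3 genes that fell are shown because these are the members past the test. Each is 300 bases of RefSeq sequence of build GRCm38.p6, 5' to 3' on the minus strand, from 250 bases before the start of the gene to 50 after it. They are chr5:24329542-24329841 for Kcnh2, chr9:32344295-32344594 for Kcnj5 and chr6:142702225-142702524 for Abcc9. Capitals mark matches, on either strand, to the GC box GGGCGG, the CCAAT box, the TATA box TATAAA, the MEF2 core TAAAAATA, the M-CAT motif CATTCC or the GATA motif GATAAG.
Kcnh2: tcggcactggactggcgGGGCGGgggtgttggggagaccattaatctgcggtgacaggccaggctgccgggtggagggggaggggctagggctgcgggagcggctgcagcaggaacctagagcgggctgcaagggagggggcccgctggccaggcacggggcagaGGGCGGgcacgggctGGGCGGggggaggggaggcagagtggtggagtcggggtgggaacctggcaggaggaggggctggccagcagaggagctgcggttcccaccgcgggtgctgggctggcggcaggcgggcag
Kcnj5: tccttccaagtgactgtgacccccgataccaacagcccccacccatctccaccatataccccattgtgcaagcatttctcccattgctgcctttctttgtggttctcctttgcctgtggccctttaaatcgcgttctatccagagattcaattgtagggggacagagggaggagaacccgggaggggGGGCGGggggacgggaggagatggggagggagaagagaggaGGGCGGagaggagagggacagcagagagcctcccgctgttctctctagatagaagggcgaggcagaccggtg
Abcc9: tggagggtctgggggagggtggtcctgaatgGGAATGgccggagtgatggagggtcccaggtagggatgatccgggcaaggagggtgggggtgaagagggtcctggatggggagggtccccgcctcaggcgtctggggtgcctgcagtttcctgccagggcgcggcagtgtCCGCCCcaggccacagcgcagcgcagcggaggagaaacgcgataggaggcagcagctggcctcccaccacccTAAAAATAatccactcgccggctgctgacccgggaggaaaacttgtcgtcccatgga

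The Kcnh2 window was 74.3% G or C with 3 GC boxes, and the Kcnj5 window 58.3% with 2. The Abcc9 window was 65.7% G or C with 1 GC box, 1 MEF2 core and 1 M-CAT motif. None of the 3 windows matched the CCAAT, TATA or GATA letters. A GC box stood in 35.7% of 32851 promoter windows of all genes, a MEF2 core in 2.72% and an M-CAT motif in 14.7%. In the 25 windows found for 21 of the tested members the GC box stood in 12, the MEF2 core in 2 and the M-CAT motif in 4. These matches describe letters only.

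Among the pore subunits of voltage-gated channels, 1 of 12 tested fell, 0 rose, and 9 differences were below 0 for banding in knockout hearts. Kcnh2, the pore of the rapid delayed rectifier, read 383, 258 and 229 in knockout banded arrays 1, 2 and 3, against 734, 694 and 859 in knockout sham arrays. It read 504, 414 and 453 in wild-type banded arrays, against 507, 524 and 681 in wild-type sham arrays. Every banded array lay below every sham array of its genotype, and the 3 knockout banded arrays were the lowest of the 12. Banding changed Kcnh2 by -1.37 (SE 0.17, 95% interval -1.75 to -0.999) on the log2 scale in knockout hearts, a fold of 0.386 with an adjusted p of 0.00753. It passed in each of 27 other settings, with differences of -1.58 to -1.23. Only 1 probe set reads it.

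Kcnd2, a pore of the transient outward current, read 348, 185 and 163 in knockout banded arrays, against 402, 500 and 445 in knockout sham arrays, and 307, 263 and 474 in wild-type banded arrays, against 344, 491 and 392 in wild-type sham arrays. The knockout groups did not overlap, whereas the wild-type groups did. Its log2 difference in knockout hearts was -0.97 (SE 0.26, adjusted p = 0.0545), and -1.29 (adjusted p = 0.00236) without the array labelled knockout banded 1. Its partner pore Kcnd3 averaged 205 ± 35.6 in knockout banded hearts and 240 ± 22.6 in knockout sham hearts (SD, n = 3 each), a difference of -0.22 (SE 0.15) that did not pass.

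Kcnq1, the pore of the slow delayed rectifier, read 290, 269 and 208 in knockout banded arrays, against 396, 408 and 526 in knockout sham arrays, with no overlap. Wild-type arrays read 517, 252 and 392 after banding, against 417, 371 and 380 after sham surgery, and overlapped. The knockout difference was -0.76 (SE 0.21, adjusted p = 0.0636), and -0.85 (adjusted p = 0.0334) without the array labelled knockout banded 1. Kcnv2, a silent subunit that modifies delayed rectifiers, read 116, 40.4 and 30.7 in knockout banded arrays, against 105, 154 and 107 in knockout sham arrays. The array labelled knockout banded 1 alone overlapped the sham arrays: the difference was -0.95 (SE 0.33, adjusted p = 0.121) with it and -1.41 (SE 0.24, adjusted p = 0.0027) without it.

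Kcna5, a pore of the slowly inactivating mouse delayed rectifier, lay the other way. It read 238, 224 and 259 in knockout banded arrays, against 191, 204 and 138 in knockout sham arrays. All 3 banded arrays lay above the sham arrays, but the difference of 0.42 (SE 0.28, 95% interval -0.19 to 1.03) did not pass (adjusted p = 0.424), and was 0.26 without knockout sham 3. Its wild-type groups overlapped, at 226 ± 97.2 after banding and 179 ± 57.3 after sham surgery (SD, n = 3 each).

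**Figure D2:**
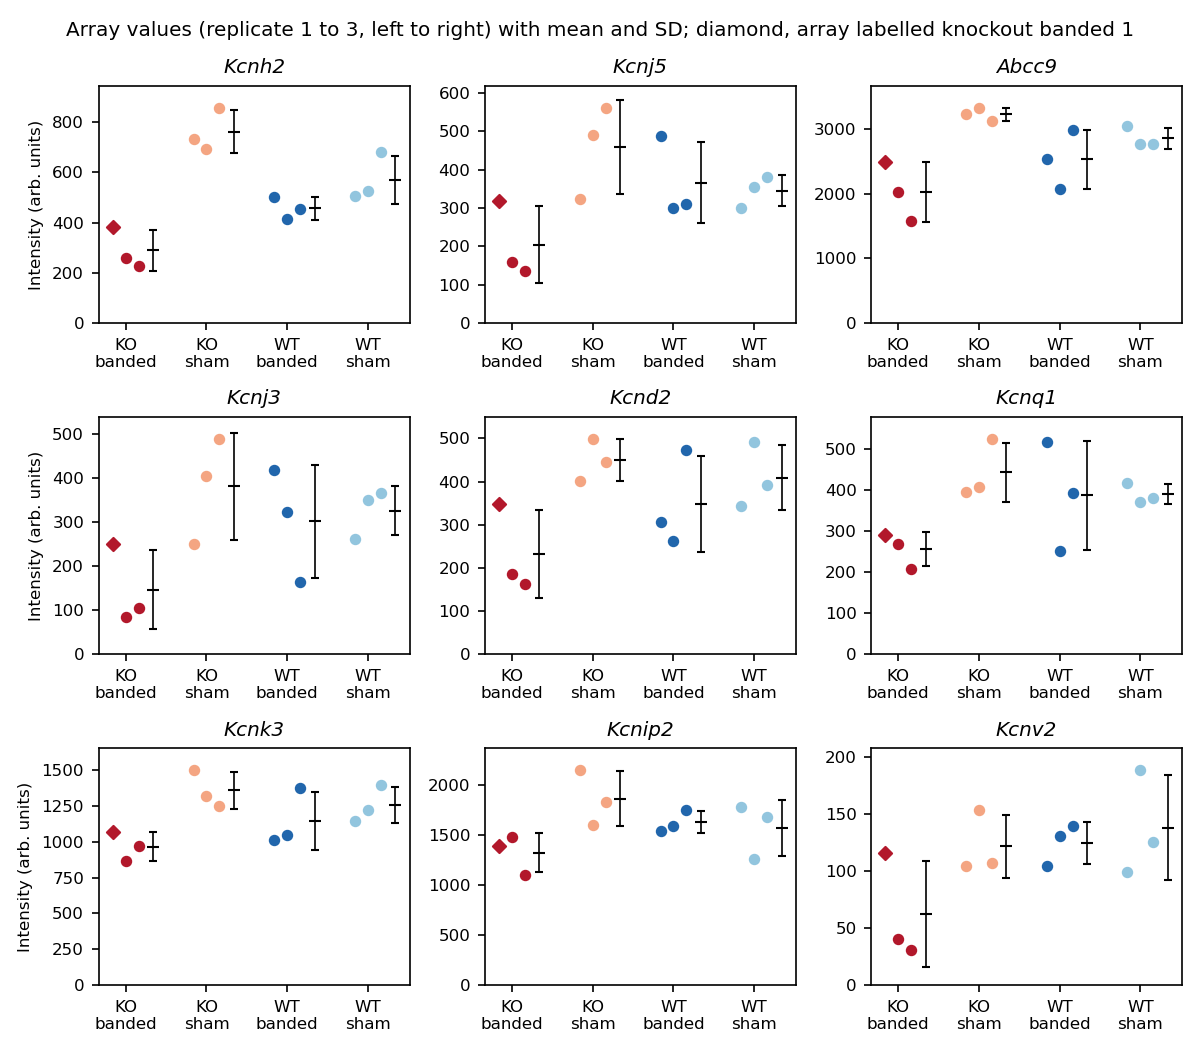
Intensity (arbitrary units, axes from 0) of 9 potassium channel genes in each array, replicates 1 to 3 left to right within a group, with the mean and SD of 3 arrays beside them and a diamond for the array labelled knockout banded 1. For Kcnj5, Kcnj3, Kcnd2 and Kcnv2 that array lies apart from the other knockout banded arrays, as with Kcnv2 at 116 against 40.4 and 30.7.

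Of the auxiliary subunits of voltage-gated channels, 0 of 4 tested passed for banding in knockout hearts, and 2 were below 0. Kcnip2, which brings the transient outward channels to the membrane, read 1389, 1483 and 1100 in knockout banded arrays, against 2153, 1604 and 1828 in knockout sham arrays. The banded arrays all lay below, by -0.49 (SE 0.15, adjusted p = 0.0928). The second Kcnip2 probe set overlapped, at 494, 657 and 465 against 744, 610 and 678, and its 3 probe sets gave -0.49 to -0.21. In wild-type hearts the probe set used averaged 1626 ± 110 after banding and 1572 ± 279 after sham surgery (SD, n = 3 each), and the groups overlapped.

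Kcne1, the subunit that slows Kcnq1 channels, averaged 51.6 ± 23.5 in knockout banded hearts and 111 ± 36.6 in knockout sham hearts (SD, n = 3 each). Its difference of -0.93 (SE 0.39) did not pass (adjusted p = 0.19). Kcne4, a subunit that inhibits Kcnq1 channels in expression systems, read 58.8, 112 and 113 in knockout banded arrays, against 52.8, 12.7 and 48.1 in knockout sham arrays. The banded arrays lay above the sham arrays, by 1.09 (SE 0.32, adjusted p = 0.0798). Without the array labelled knockout banded 1 this was 1.35 (adjusted p = 0.0207), and without knockout sham 2, the 12.7, it was 0.69 (adjusted p = 0.218). The knockout sham arrays lay below the wild-type sham arrays of 82.5, 59.6 and 112, by -0.97 (SE 0.32, adjusted p = 0.93).

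Among the inward rectifiers, 1 of 7 tested fell in knockout hearts after banding, 0 rose, and 6 were below 0. Kcnj5, a subunit of the acetylcholine-activated channel, read 319, 159 and 136 in knockout banded arrays, against 324, 489 and 562 in knockout sham arrays. It read 488, 300 and 310 in wild-type banded arrays, against 301, 354 and 380 in wild-type sham arrays. The knockout groups stood apart by a narrow gap, 319 against 324, and the wild-type groups overlapped. The knockout difference was -1.16 (SE 0.28, 95% interval -1.77 to -0.55), a fold of 0.448 with an adjusted p of 0.0431.

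The Kcnj5 call held in 12 of 27 other settings, with adjusted p between 0.00172 and 0.182. It was lost on leaving out any 1 array other than that labelled knockout banded 1 and wild-type banded 1. The mean of its 2 probe sets gave -0.70 (adjusted p = 0.123), and its second probe set on its own gave -0.24. Kcnj3, the other subunit of that channel, read 250, 84.4 and 104 in knockout banded arrays, against 249, 403 and 489 in knockout sham arrays, with overlap at the highest banded and lowest sham array. Its difference was -1.38 (SE 0.38, adjusted p = 0.061), and -1.80 (SE 0.33, adjusted p = 0.00463) without the array labelled knockout banded 1. All 4 Kcnj3 probe sets were below 0, from -1.38 to -0.67.

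Both subunits are abundant in atrial muscle, so the 7 atrial markers were read beside them. Their mean log2 value was 9.28 to 10.11 in knockout banded arrays, against 6.80 to 11.11 in knockout sham arrays, 7.17 to 11.46 in wild-type banded arrays and 8.49 to 10.69 in wild-type sham arrays. None of the 7 passed the test for banding in knockout hearts (limma), 1 had an unadjusted p under 0.05, and their median difference was 0.29. Knockout sham 1 and wild-type banded 3, the arrays with Sln at 3.19 and 1.42, had Kcnj3 at 249 and 163 and Kcnj5 at 324 and 310. Their Kcnj3 was the lowest of their own groups, whose other arrays read 403 and 489 in knockout sham and 418 and 321 in wild-type banded hearts. Knockout banded 2 and 3 had more Sln than these 2 arrays, 645 and 857, and less Kcnj3, 84.4 and 104. Inside the knockout banded group Kcnj3 went with the atrial mean. It read 250, 84.4 and 104 in arrays 1, 2 and 3, where the atrial mean was 10.11, 9.28 and 9.53. With the atrial mean as a covariate the knockout banding difference was -1.41 for Kcnj3 (adjusted p = 0.0233) and -1.18 for Kcnj5 (adjusted p = 0.0281). Of the 7 markers in that mean, 2 were below 0 for banding in knockout hearts. Stk39, 1 of these 2, read 479, 684 and 384 in knockout banded arrays, against 850, 693 and 846 in knockout sham arrays. A mean whose markers can differ with banding does not measure atrial content alone, so the covariate fit cannot separate the 2. The part of atrial content in the Kcnj3 and Kcnj5 values was not tested.

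**Figure D3:**
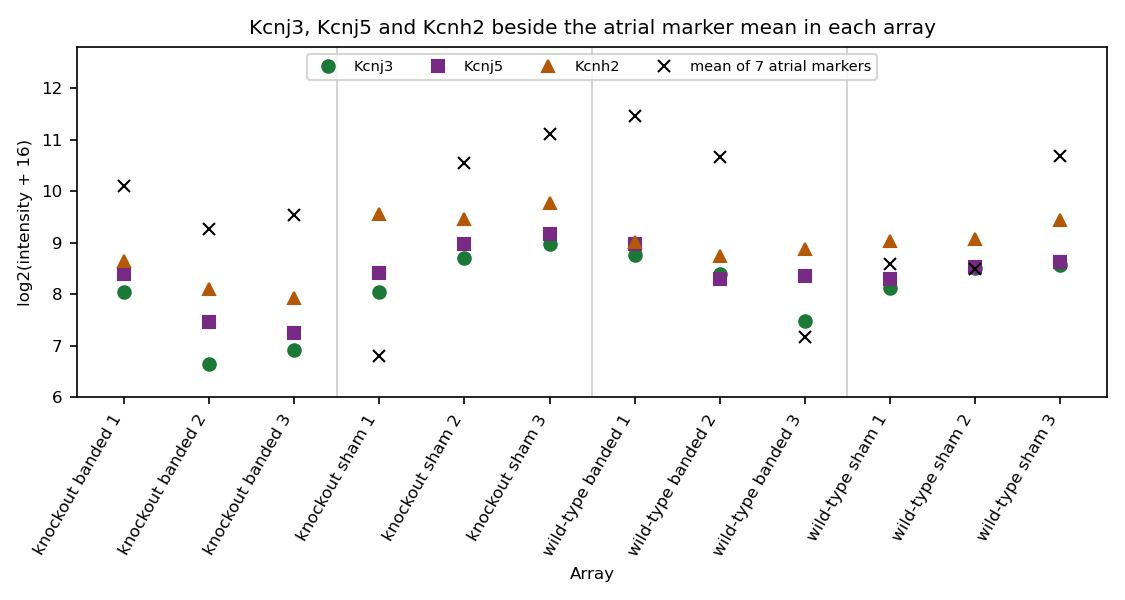
Log2(intensity + 16) of Kcnj3, Kcnj5 and Kcnh2 and the mean of 7 atrial markers in each of the 12 arrays, in group order. Of the 12 arrays, Kcnj3 is lowest in knockout banded 2 and 3, where the atrial mean is 9.28 and 9.53. Within each group except wild-type sham, the array of lowest atrial mean has the lowest Kcnj3, as with knockout sham 1 at an atrial mean of 6.80.

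In the ATP-sensitive channels the sulfonylurea receptor and the pore genes differed in their calls. Abcc9, the receptor of the ventricular and vascular muscle channel, read 2494, 2022 and 1573 in knockout banded arrays, against 3232, 3337 and 3136 in knockout sham arrays. Wild-type arrays read 2542, 2079 and 2989 after banding, against 3049, 2770 and 2771 after sham surgery. The knockout groups did not overlap, and the wild-type groups did. Abcc9 fell by 0.69 (SE 0.16, 95% interval -1.04 to -0.35) on the log2 scale in knockout hearts, a fold of 0.619 with an adjusted p of 0.0350.

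All 3 Abcc9 probe sets were below 0, from -0.86 to -0.69. The call held in 19 of 27 other settings. It was lost on leaving out knockout banded 2 or 3 or any of the 3 knockout sham arrays, with adjusted p of 0.0970 to 0.147. The pores that pair with the receptors did not pass. Kcnj11 averaged 1176 ± 143 in knockout banded hearts and 1279 ± 180 in knockout sham hearts (SD, n = 3 each), a difference of -0.12 (95% interval -0.38 to 0.15). Kcnj8, the pore of vessel walls, averaged 301 ± 60.9 in knockout banded hearts and 342 ± 39.6 in knockout sham hearts, a difference of -0.19 (SE 0.16). Abcc8, the receptor of mouse atrial channels, averaged 158 ± 15.9 in knockout banded hearts and 181 ± 50.2 in knockout sham hearts. That difference was -0.15 (SE 0.20) and did not pass. The second Abcc8 probe set gave -0.52, at 117, 99.8 and 118 in knockout banded arrays against 128, 185 and 194 in knockout sham arrays. Whether Abcc9 differed from Kcnj11 was not tested.

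Kcnj12, an inward rectifier of resting muscle, averaged 82.9 ± 16.3 in knockout banded hearts and 96.4 ± 11.7 in knockout sham hearts (SD, n = 3 each), a difference of -0.19 (SE 0.19) that did not pass. Of the tandem-pore-domain genes, 0 of 3 tested passed. Kcnk3, which carries a background current blocked by acid, read 1067, 865 and 968 in knockout banded arrays, against 1504, 1318 and 1252 in knockout sham arrays. The banded arrays all lay below the sham arrays, by -0.48 (SE 0.13, adjusted p = 0.061), and its 3 probe sets gave -0.64 to -0.48. In wild-type hearts the probe set used differed by -0.14, but the others lay the other way. Its second probe set read 580, 531 and 431 after banding, against 337, 363 and 399 after sham surgery. The third read 480, 334 and 242, against 239, 249 and 236. Without the array labelled knockout banded 1 the difference of the probe set used was -0.56 in knockout hearts (adjusted p = 0.0252).

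None of the 4 tested calcium- or sodium-activated genes passed in knockout hearts, with a median of -0.13. Kcnn2, a small-conductance channel opened by calcium, averaged 56.3 ± 18.4 in knockout banded hearts and 76.0 ± 1.95 in knockout sham hearts (SD, n = 3 each). Its difference was -0.38 (SE 0.21) in knockout hearts and also -0.38 in wild-type hearts, and neither passed. Kcnma1, the large-conductance channel of smooth muscle, differed by -0.24 in knockout and 0.61 in wild-type hearts, and did not pass in either. Kcnq1ot1, the non-coding RNA made within and antisense to Kcnq1, read 154, 136 and 43.5 in knockout banded arrays, against 208, 247 and 181 in knockout sham arrays. Those groups did not overlap, but 3 of its 6 probe sets were below 0 and the difference of -0.97 (SE 0.36) did not pass (adjusted p = 0.147). It was -1.25 (adjusted p = 0.0467) without the array labelled knockout banded 1, and -0.49 (adjusted p = 0.435) without knockout banded 3.

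**Figure D4:**
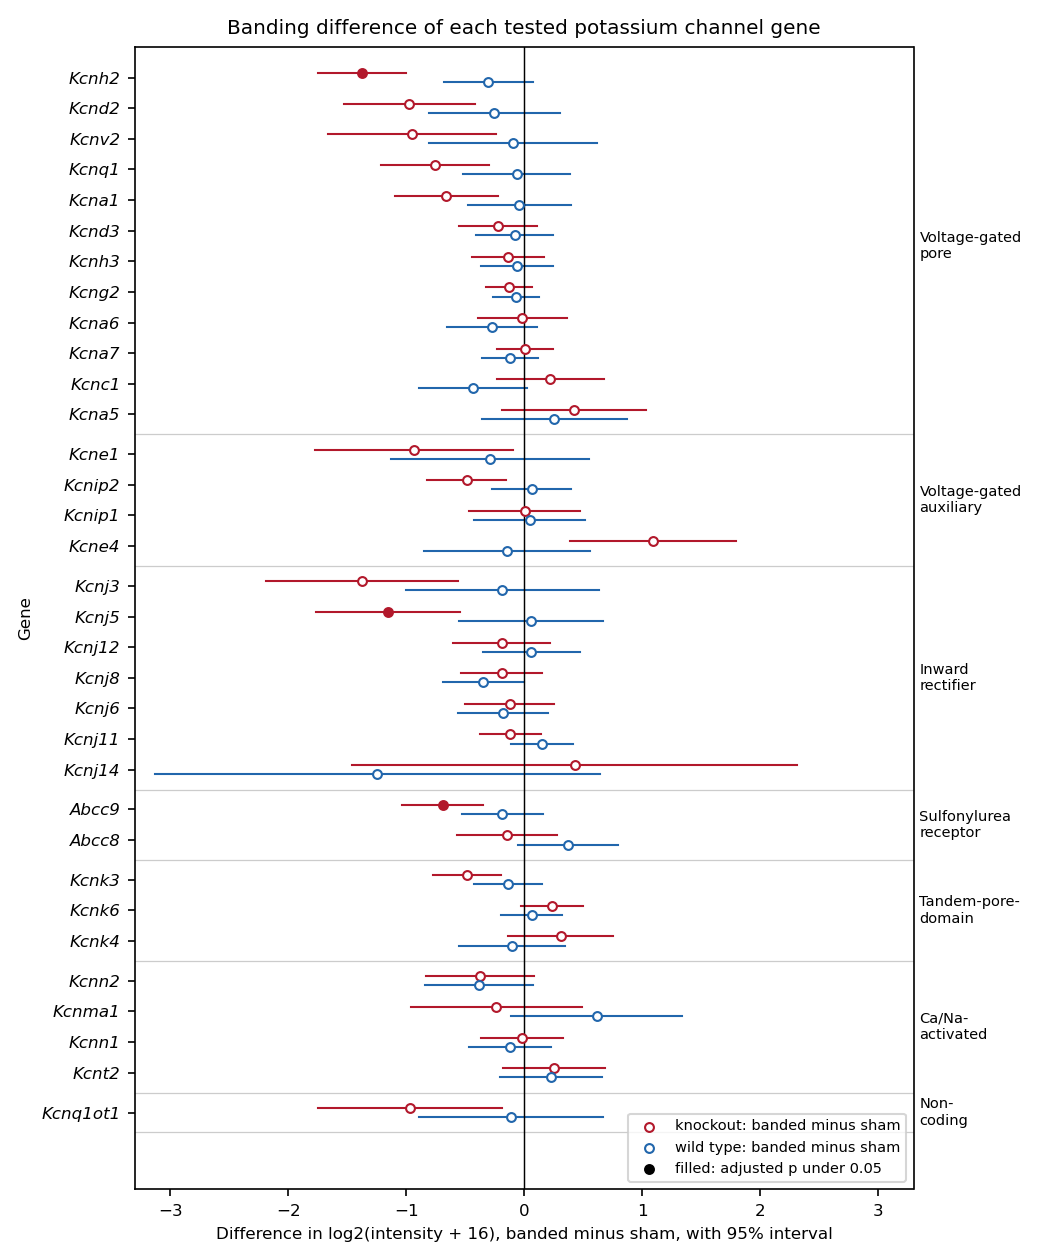
Difference in log2(intensity + 16), banded minus sham, with its 95% interval for the 33 tested potassium channel genes by class, in red for knockout and blue for wild type, filled where the adjusted p is under 0.05. The filled points are Kcnh2 at -1.37, Kcnj5 at -1.16 and Abcc9 at -0.69, all in knockout hearts.

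Markers of heart muscle were read in the same contrasts. All 8 cardiomyocyte markers were below 0 for banding in knockout hearts, with a median of -0.31, and 1, Ryr2, fell while 7 did not pass. All 8 were also below 0 for banding in wild-type hearts, with a median of -0.12 and 0 passing (limma, 0 at an unadjusted p under 0.05). The 7 atrial markers had a median of 0.29 in knockout and 0.44 in wild-type hearts. The summed intensity of the 8 cardiomyocyte markers was 67225 to 69126 in knockout banded arrays, against 82296 to 90644 in knockout sham arrays. Among 6 nerve and glial markers in the table, summed intensity was 365 to 423 in knockout banded arrays, against 507 to 590 in knockout sham arrays. Dbh read 218, 160 and 172 in knockout banded arrays, against 260, 285 and 337 in knockout sham arrays. Sox10 was also lower in each banded array, whereas S100b, Th, Prph and Snap25 overlapped. Of the 6 markers, 3 were tested and 1, Dbh, fell by 0.64. Of 7 tested smooth muscle and pericyte markers, 0 passed in limma, 1 had an unadjusted p under 0.05 and 3 were below 0, with a median of 0.05. Their part in the channel results was not tested.

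In wild-type hearts banding gave 0 calls among the 33 genes, where limma called 0.0% of all genes and the lowest adjusted p among the 33 was 0.921. At an unadjusted p under 0.05 there was 1 of the 33, against 4.89% of all genes. The median was -0.10, against -0.02 over all genes. The banded arrays lay wholly below the sham arrays for 3 of 33 and wholly above for 1, against 6.17% and 3.76% of all genes. Kcnh2 was 1 of the 3, at -0.30 (SE 0.17), with Kcnj8 at -0.35 (SE 0.16) another. Kcnj8 read 350, 299 and 313 in wild-type banded arrays, against 504, 373 and 372 in wild-type sham arrays. Kcnj11 was the 1 above, at 1414, 1507 and 1418 in wild-type banded arrays, against 1342, 1175 and 1393 in wild-type sham arrays.

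The difference between the 2 banding effects was tested as an interaction, the knockout effect minus the wild-type effect. No gene of the 33 passed in limma, as with 0.0% of all genes, and 9 had an unadjusted p under 0.05, against 9.11% of all genes. Kcnh2 had the lowest adjusted p of the 33 at 0.402, with a difference of -1.07 (SE 0.24, 95% interval -1.60 to -0.54). Kcnj5 differed by -1.21 (SE 0.40, adjusted p = 0.442) and Abcc9 by -0.50 (SE 0.22, adjusted p = 0.542). Without the array labelled knockout banded 1, Kcnh2 at -1.28 (adjusted p = 0.00856) and Kcnj5 at -1.56 (adjusted p = 0.0317) passed, where 0.87% of all genes were lower and 1.04% higher. With all 12 arrays the calls in knockout hearts were thus not shown to differ from wild-type hearts.

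Averaged over both genotypes, the banding difference of Kcnh2 was -0.84 (SE 0.12, adjusted p = 0.0133). It was the 1 member that passed, where 1.6% of all genes passed and 0.669% fell. At an unadjusted p under 0.05 there were 12 of 33, against 18.2% of all genes. All 6 banded arrays lay below all 6 sham arrays, which held for no other tested member and for 0.751% of all genes. No member lay wholly above, against 0.568%. Without knockout sham 3 its adjusted p was 0.0543 and the count was 0. Without the array labelled knockout banded 1 the count was 7, all lower, with Abcc9, Kcnd2, Kcnj3, Kcnj5, Kcnk3 and Kcnv2 beside Kcnh2, where 4.76% of all genes fell and 4.36% rose.

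Between genotypes, no member passed in limma in banded hearts, in sham hearts or averaged over both, where 0.0% of all genes passed. At an unadjusted p under 0.05 there were 12, 2 and 4 of the 33, against 14.6%, 5.22% and 10.6% of all genes. In banded hearts the median was -0.23 with 24 of 33 below 0, against 0.00 over all genes with 49.4% below. Knockout banded arrays lay wholly below wild-type banded arrays for 5 members and wholly above for 1, against 8.95% and 10.1% of all genes. Kcnh2 (-0.66, SE 0.17) and Kcnip2 (-0.30 for the probe set used, whereas the groups overlapped in its second probe set) were among the 5. So was Kcna1, a voltage-gated pore subunit named here after its values were seen. It read 32.2, 25.6 and 57.0 in knockout banded arrays, against 91.3, 72.9 and 71.1 in wild-type banded arrays. For this probe set the difference was -0.83 (SE 0.20), with the lowest adjusted p of the 33 in that comparison, 0.128. The second Kcna1 probe set overlapped, at 50.3, 35.7 and 20.5 against 112, 38.0 and 49.0. The third also overlapped, at 56.8, 27.4 and 26.9 against 39.1, 22.9 and 38.6. The fourth did not, at 29.9, 20.8 and 10.6 against 57.2, 33.9 and 41.4.

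The ATP-sensitive genes Kcnj11 and Abcc8 were also among those 5. Kcnj11 read 1318, 1033 and 1176 in knockout banded arrays, against 1414, 1507 and 1418 in wild-type banded arrays, a difference of -0.30 (SE 0.12, adjusted p = 0.274). Abcc8 read 152, 146 and 176 in knockout banded arrays, against 267, 189 and 287 in wild-type banded arrays, a difference of -0.58 (SE 0.20, adjusted p = 0.218). With these probe sets neither pair of groups overlapped, and neither gene passed. The second Kcnj11 probe set overlapped, at 244, 210 and 349 against 352, 299 and 415, whereas the second Abcc8 probe set did not. Without the array labelled knockout banded 1, Kcnd2, Kcnh2, Kcnj3, Kcnj5 and Kcnv2 were lower in knockout than wild-type banded hearts, where 2.89% of all genes were lower and 3.22% higher. Averaged over surgery Kcnv2 then passed too, where 0.559% were lower and 0.733% higher.

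In sham hearts, Kcnh2 read higher in all 3 knockout arrays than in any wild-type array, by 0.41 (SE 0.17, adjusted p = 0.93), as did Abcc9, by 0.18. These were the 2 members wholly above, against 5.5% of all genes, and Kcne4 was the 1 wholly below, against 5.32%. The comparisons of banding in knockout and of genotype in banded hearts share the knockout banded arrays, and those of banding in knockout and of genotype in sham hearts share the knockout sham arrays. The high knockout sham values of Kcnh2 therefore enter its banding difference in knockout hearts.

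A list of 35 partners and regulators of cardiac potassium channels, such as scaffolds, G proteins and transcription factors, had 31 genes in the table and 28 tested. For banding in knockout hearts limma called 0 of the 28, with 5 at an unadjusted p under 0.05, a median of -0.07 and 21 below 0. None passed in the other 6 contrasts, where 2 to 4 had an unadjusted p under 0.05.

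Several known cardiac members lay below the filter. Kcnj2, the main pore of the resting inward rectifier, averaged 5.11 ± 5.11 in knockout banded hearts, 13.3 ± 8.93 in knockout sham hearts, 14.9 ± 8.37 in wild-type banded hearts and 12.1 ± 12.4 in wild-type sham hearts (SD, n = 3 each). Kcna4, a pore of the slow transient outward current, averaged 38.3 ± 0.468 in knockout banded, 42.5 ± 8.54 in knockout sham, 33.4 ± 2.18 in wild-type banded and 42.3 ± 2.51 in wild-type sham hearts. Such readings are near the bottom of the scale, and the deposited values carry no detection call. The auxiliary subunit Kcnab1 averaged 39.2 to 51.4, Kcnmb1, the smooth muscle partner of Kcnma1, 21.5 to 40.6, and Kcnn4, a calcium-activated channel of endothelium and blood cells, 7.84 to 15.9.

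Kcnk2, a stretch-sensitive background channel, was also below the filter. It read 44.2, 54.1 and 63.7 in knockout banded arrays, against 43.9, 42.4 and 38.5 in knockout sham arrays. It read 33.4, 22.2 and 29.0 in wild-type banded arrays, against 50.1, 51.9 and 46.5 in wild-type sham arrays. Banded arrays lay above sham arrays in knockout hearts and below them in wild-type hearts. With no filter on low values it passed in no contrast.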

How the data were processed

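Total RNA, extracted with Trizol and labelled with biotin per the labels' protocols, was measured on 12 Affymetrix arrays, 3 per group, which the titles call biological replicates. The values the authors deposited are linear intensities, 1 per probe set and array. Which software and scaling made them was not given in the sources used here. The trimmed mean was 150 in every array, so no further scaling was applied. Array data have no read depth, and the number of arrays limits the precision.

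Of 45101 probe sets, 64 controls, 932 with several genes and 9160 unlisted by the platform annotation were left out, which kept 34945. All 86 members matched RefSeq by Entrez number. Intensities were taken as log2(value + 16). Each gene kept the probe set of highest mean log2 value, and the upper 60% of 18193 genes, 10916, were tested. In limma 3.58.1 (R 4.3.3), 4 group means were fitted to the 12 arrays, with eBayes and a variance trend. Tests were two-sided, with Benjamini-Hochberg adjustment over the 10916 genes of each of 7 contrasts. Differences are on the log2(value + 16) scale and understate changes of low genes. The procedure was tested on simulated data.

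The members, lists and tests were chosen with earlier results of these data known. Members named are those passing in any contrast, 24 in the table that carry or modulate known currents of heart muscle and vessels, and the largest banding difference of each class in knockout. Other settings were the filter, pseudocount, scaling, variance trend, array weights, probe sets of a gene, groups in the fit, replicate block, an atrial covariate and arrays left out. The probe set of highest mean linear intensity was added after seeing the data.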

Additional observations from a re-analysis of the deposited data

How the results depend on the processing

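The count of members that passed for banding in knockout hearts, 3, was 1 with no filter (1.17% of all genes called), 1 with only the groups compared (0.678%), 1 with the replicate block (2.17%), 11 with array weights (17.1%) and 9 without the arrays labelled knockout banded 1 and wild-type banded 3 (12.4%). Leaving out 1 array at a time it ranged from 1 to 10. For banding averaged over genotypes, 1 passed, against 2 with no filter (0.423%), with every single-gene probe set (1.09%) or with the atrial covariate (1.23%), 6 with array weights (7.04%) and 7 without both arrays (8.5%), and 0 to 7 leaving out 1 array. With no filter the added gene was Kcne3, at 1.17 to 14.4 in all arrays, below the 16 added before the log. It averaged 13.1 in knockout banded and 9.84 in wild-type banded hearts, against 4.21 and 1.93 in the sham hearts of each. The interaction gave 3 without both arrays (0.879%) and 0 to 2 leaving out 1. Genotype in banded hearts gave 4 with array weights (5.32%), 4 without both arrays (3.24%) and 0 to 5 leaving out 1. Genotype averaged over surgery gave 0 to 1 leaving out 1. Banding in wild type and genotype in sham hearts stayed at 0 in each setting run. The Apln difference was -1.17 to -0.80 leaving out 1 array. No named member tested reversed its difference for banding in knockout hearts in these settings, nor did Kcnh2 averaged over genotypes. In the setting with every single-gene probe set, only the probe set already used was compared for these differences. Read singly, other probe sets reached 0.35 for Kcnd2, 0.73 for Kcnd3, 0.079 for Kcnj11, 0.37 for Kcnma1 and 0.13 for Kcnq1ot1. Those of Abcc8, Abcc9, Kcne1, Kcnip2, Kcnj3, Kcnj5 and Kcnk3 were all below 0. Values of named members in the other contrasts were not compared across settings, except without the array labelled knockout banded 1. Same-numbered arrays had deviations correlated at -0.28 to 0.23, with 2 of 18 pairs above 0.1, so the numbers were not taken as pairs. With the replicate block Kcnh2 passed, and Abcc9 (adjusted p = 0.0542) and Kcnj5 (adjusted p = 0.0718) did not. The cause of these shifts was not tested. With 3 arrays per group, 1 heart can decide a call.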

Other observations

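Kcnj14, an inward rectifier, had the widest spread of the tested members and was chosen for mention after its values were seen. Its arrays ran from 20.4 to 523, and the knockout banding difference of 0.43 had a 95% interval that covered 0. Its spread lay within groups: the knockout sham arrays held both 22.6 and 523.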
